A study of Mus musculus with 16 samples.

Results

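Leukocytes leave the blood in steps, and each step pairs a molecule on the vessel wall with a partner on the leukocyte. The 9 genes described here code for such pairs. On the vessel side stand the selectins P-selectin (Selp) and E-selectin (Sele), which catch passing leukocytes, and the immunoglobulin-family molecules Vcam1, Icam1 and Icam2, to which leukocytes then hold fast. On the leukocyte side stand Selplg, which codes for PSGL-1, the main ligand of P-selectin, the integrin chain Itga4, which with Itgb1 forms VLA-4 and binds Vcam1, and Itgam and Itgb2, which together form Mac-1 and bind Icam1. In arteries, activated endothelium is known to raise Vcam1 and the selectins through NF-kB, whereas Icam2 is present on resting endothelium. The sides are not cell-exclusive: Vcam1 and Icam1 are also made by smooth muscle cells and fibroblasts, P-selectin is stored in platelets as well, and Itga4 occurs outside the leukocyte lineage.

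The genes were found by their symbols among the rows of a gene count table, and 9 of 52636 rows were members, 5 on the vessel side and 4 on the leukocyte side. The table came from RNA sequencing of whole descending thoracic aorta of mice of 2 inbred strains, C57BL/6J and 129S6/SvEvTac, each as control or with angiotensin II (AngII), a peptide that raises blood pressure. Each of the 4 groups, C57BL/6J control, C57BL/6J AngII, 129S6/SvEvTac control and 129S6/SvEvTac AngII, held 4 libraries; no other allele or agent is named in the labels. The sources used here do not give the dose and duration of AngII, the age and sex of the mice, or whether each library came from its own mouse, and the p-values below measure only the spread between these libraries, which may be technical. Values are in CPM, the standard unit of counts scaled to library size, unless CPM per kb of exon is written, which is used where genes are compared with each other. Differences between groups were tested with edgeR's quasi-likelihood test over 17125 genes, among them all 9 members, and a gene was called changed at an adjusted p below 0.05.

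Library totals ran from 42116120 to 121573945 counts, the deepest being 129S6/SvEvTac AngII replicate 5. Smooth muscle markers were abundant in every library, and their sum was 12490 to 29530 CPM in C57BL/6J AngII against 38890 to 42140 in C57BL/6J control. The summed endothelial markers (12 genes, none a member) were 590 to 726 CPM in C57BL/6J control, 601 to 703 in C57BL/6J AngII, 342 to 577 in 129S6/SvEvTac control and 453 to 681 in 3 of the 129S6/SvEvTac AngII libraries. In the other library of that group, replicate 2, the endothelial sum was 1330 CPM. The summed pan-leukocyte markers (8 genes, none a member) were 93.6 to 152 CPM in C57BL/6J control and 269 to 572 in C57BL/6J AngII, with no overlap, but 74.9 to 118 in 129S6/SvEvTac control and 103 to 152 in 129S6/SvEvTac AngII, which overlapped. Within C57BL/6J control, replicate 3 stood apart with 37.3 CPM of neutrophil markers and 48.8 of platelet markers, against 1.27 to 11.2 and 15.3 to 32.4 in the other 3 libraries. Within C57BL/6J AngII, replicate 1 had the most adipocyte marker RNA, 4479 CPM against 200 to 2395. In RNA of a whole vessel, more cells of a type and more RNA of a gene per cell cannot be told apart. The part of these differences in the results below was not tested, except where a value with and without a library is given.

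Promoter sequences are shown for 3 vessel-side genes that are textbook targets of inflammatory signals and that behaved differently here: Sele and Selp, both higher with AngII in C57BL/6J, and Icam1, not called. Entries were found for 5 of the 9 members (Icam1, Selp, Sele, Itgam and Itga4). Each sequence is the 250 bases before the start of the gene in RefSeq (build GRCm38.p6), 5′ to 3′ on the gene's strand, which is the plus strand for all 3. Capitals mark matches to any of the 3 short motifs that were searched.
Sele, chr1:164047984-164048233: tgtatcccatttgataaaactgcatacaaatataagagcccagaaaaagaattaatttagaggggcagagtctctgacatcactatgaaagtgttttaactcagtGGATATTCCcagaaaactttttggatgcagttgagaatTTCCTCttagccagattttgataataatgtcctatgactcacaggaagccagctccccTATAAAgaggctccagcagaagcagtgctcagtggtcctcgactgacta
Selp, chr1:164115014-164115263: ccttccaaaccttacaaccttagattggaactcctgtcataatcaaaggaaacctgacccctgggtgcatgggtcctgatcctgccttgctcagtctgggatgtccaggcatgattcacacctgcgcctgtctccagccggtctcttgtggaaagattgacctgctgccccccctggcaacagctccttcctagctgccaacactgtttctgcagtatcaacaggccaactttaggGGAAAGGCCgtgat
Icam1, chr9:21015690-21015939: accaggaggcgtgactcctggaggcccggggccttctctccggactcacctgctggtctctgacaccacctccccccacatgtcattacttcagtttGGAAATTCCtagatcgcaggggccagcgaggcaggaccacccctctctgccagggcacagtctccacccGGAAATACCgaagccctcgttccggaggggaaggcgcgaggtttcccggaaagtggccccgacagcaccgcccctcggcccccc

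The NF-kB-like motif GGNNNTTCC, searched on both strands (GGAANNNCC on the other strand), was matched in all 3 windows: at bases 145 to 137 before the start in Sele, 14 to 6 in Selp, and at 153 to 145 (a match on both strands) and 84 to 76 in Icam1. Such a match was present in 15.6% of 27025 promoter windows of the same length. The 3 windows were picked for printing after the matches had been seen, so they cannot be set against that share. The window of Itgam, not printed, held no NF-kB-like match. The PU.1-like motif GAGGAA, also searched on both strands (TTCCTC on the other), was matched at bases 107 to 102 in Sele and, in the windows not printed, at 84 to 79 and 15 to 10 in Itgam; it was present in 23.1% of the windows. TATAAA, searched only in the direction of the gene, was matched at bases 49 to 44 in Sele and in 8.12% of all windows. The motifs do not overlap each other in the 3 sequences. The window of Itga4 held no match to any of the 3. The matches describe letters of the C57BL/6J reference only; the 129S6/SvEvTac sequence was not used here. RefSeq's start of Icam1 lies 45 bases from that of the gene annotation, and those of Sele and Selp are the same in both.

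Selp (ENSMUSG00000026580.16, chr1:164115264-164150026, plus strand) and Sele (ENSMUSG00000026582.6, chr1:164048234-164057677, plus strand) lie near each other on chromosome 1 (GRCm38). Both rose with AngII in C57BL/6J and neither was called in 129S6/SvEvTac. Selp read 11.4, 14.7, 24.5 and 14.2 CPM in the C57BL/6J control libraries (replicates 1, 2, 3 and 5) and 32.7, 84.9, 54.8 and 43.6 in C57BL/6J AngII (replicates 1, 2, 3 and 5). The 129S6/SvEvTac libraries read 15.8, 15.99, 19.3 and 8.74 CPM in control (replicates 1 to 4) and 10.9, 49.8, 14.7 and 13.7 with AngII (replicates 1, 2, 4 and 5). All C57BL/6J AngII libraries were therefore above all C57BL/6J controls, while in 129S6/SvEvTac the groups overlapped and only replicate 2 with AngII, the library with the high endothelial sum, rose above the controls. The change in C57BL/6J was 3.34-fold (log2 fold change 1.74 ± 0.45 SE, adjusted p = 0.00652, edgeR). In 129S6/SvEvTac it was 0.57 ± 0.44 (adjusted p = 0.464), and -0.20 without replicate 2. Gm16548 and Gm16587, on the opposite strand, share 438 and 186 exon bases with Selp and had counts of 0 to 15 per library; how reads in the shared bases were divided was not tested.

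Sele was the least abundant member per kb in both control groups. It read 0.838, 1.68, 1.48 and 1.35 CPM in C57BL/6J control and 4.69, 12.7, 18.8 and 3.28 in C57BL/6J AngII. It read 1.22, 0.564, 2.53 and 1.09 CPM in 129S6/SvEvTac control and 0.993, 10.1, 0.834 and 2.32 in 129S6/SvEvTac AngII. The C57BL/6J groups did not overlap, the spread with AngII was wide, and the 129S6/SvEvTac groups differed mainly through replicate 2. The rise in C57BL/6J was 7.38-fold (2.88 ± 0.77, adjusted p = 0.00805), the steepest fold among the members. For 129S6/SvEvTac the log2 fold change was 1.39 ± 0.75 (adjusted p = 0.264) with all libraries and 0.04 without replicate 2.

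Selplg (ENSMUSG00000048163.13, chr5:113818536-113832644, minus strand), the leukocyte ligand of the selectins, rose with AngII in C57BL/6J as well. Its values were 2.97, 2.91, 7.94 and 3.72 CPM in C57BL/6J control and 17.7, 8.45, 11.03 and 15.7 in C57BL/6J AngII. They were 2.92, 3.65, 3.97 and 1.64 CPM in 129S6/SvEvTac control and 4.65, 3.004, 3.47 and 4.91 in 129S6/SvEvTac AngII. C57BL/6J control replicate 3, the library with the most neutrophil and platelet marker RNA, was just below the lowest AngII library. The rise was 3.01-fold (1.59 ± 0.35, adjusted p = 0.0023) against 0.40 ± 0.35 (adjusted p = 0.529) in 129S6/SvEvTac. With an adipocyte score as covariate it was 1.29 and no longer called (adjusted p = 0.0645).

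**Figure D1:**
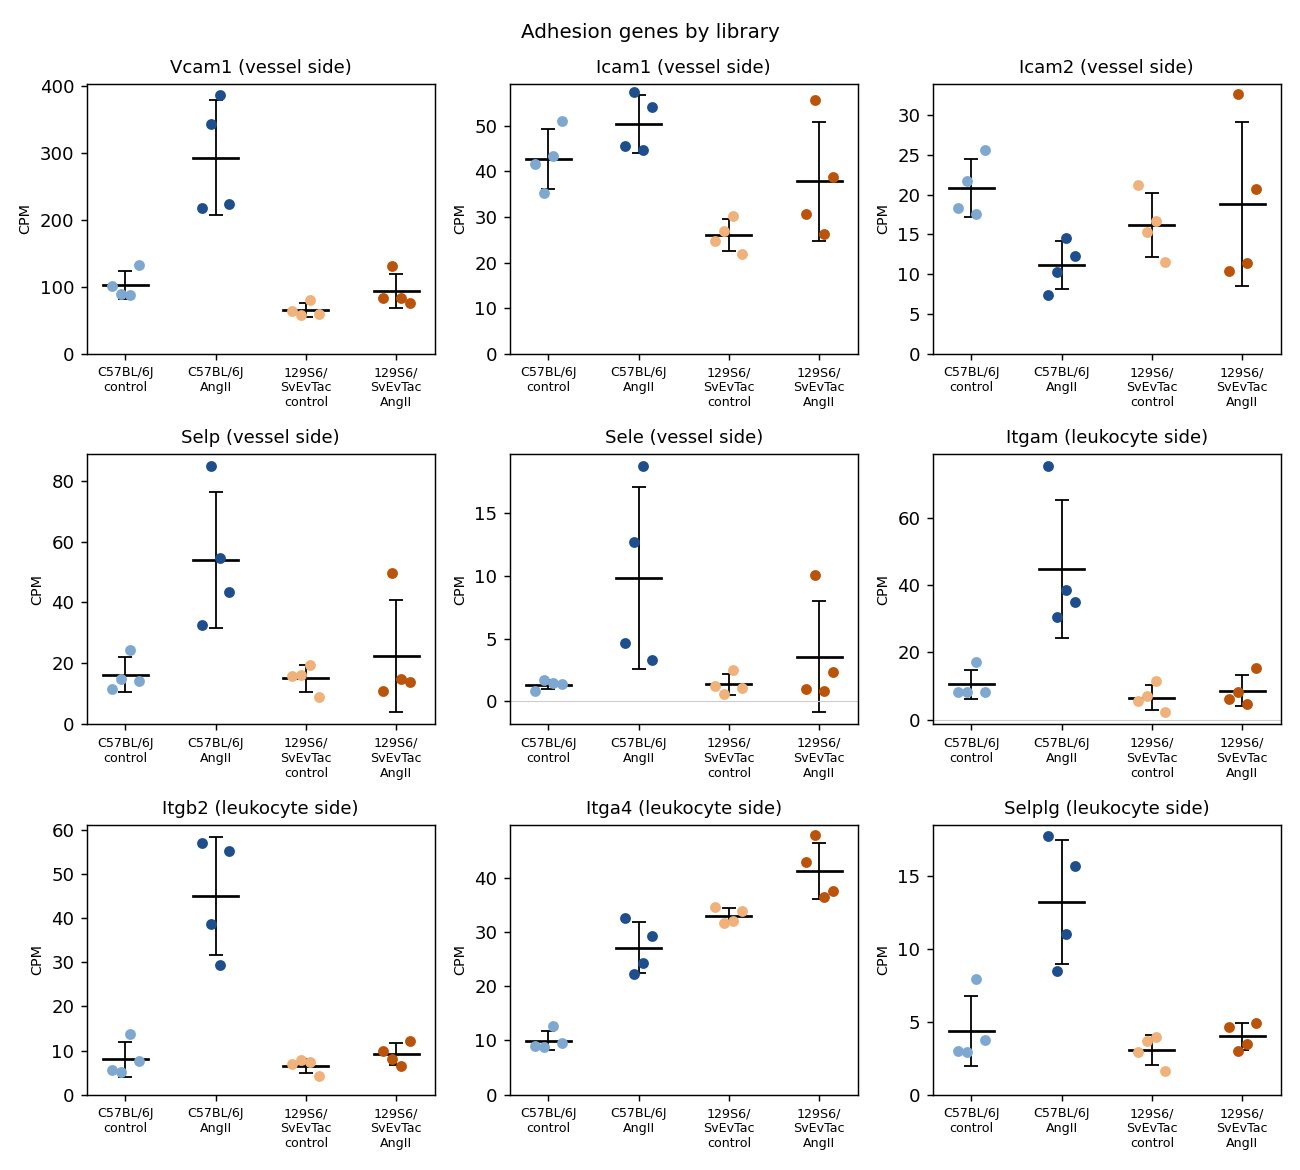
CPM (vertical axis, linear) of the 9 adhesion genes in each library (points), by group, with the group mean (bar) and SD (whiskers, n = 4). Itga4 is lowest in the 4 C57BL/6J control libraries (8.82 to 12.6 CPM), and a single 129S6/SvEvTac AngII library (replicate 2) lies far above its group for Vcam1, Selp and Sele.

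Vcam1 (ENSMUSG00000027962.14, chr3:116109949-116129688, minus strand) was the most abundant member per kb in 3 of the 4 groups, Icam2 being higher in 129S6/SvEvTac control. It read 101, 88.5, 87.6 and 132 CPM in C57BL/6J control and 218, 343, 386 and 223 in C57BL/6J AngII, so that the lowest AngII library was well above the highest control. In the 129S6/SvEvTac libraries it read 63.3, 57.2, 80.3 and 59.7 CPM in control and 82.5, 131, 83.4 and 76.3 with AngII; there AngII replicate 5 was below control replicate 3. The C57BL/6J rise was 2.86-fold (1.52 ± 0.22, adjusted p = 7.79e-05), and the change in 129S6/SvEvTac was 0.52 ± 0.22 (adjusted p = 0.140). The AngII effect was larger in C57BL/6J by 0.9997 ± 0.30 on the log2 scale, with an adjusted p of 0.0498 at the edge of the threshold. That call was lost when any of 12 of the 16 libraries was left out, and it held without C57BL/6J AngII replicate 1 or 5, C57BL/6J control replicate 5 or 129S6/SvEvTac AngII replicate 2 (adjusted p 0.0204 to 0.108 over the 16 omissions). With AngII, Vcam1 was higher in C57BL/6J than in 129S6/SvEvTac by 1.65 ± 0.22 (adjusted p = 5.29e-05), and the libraries did not overlap. In controls the C57BL/6J libraries were again all higher, by 0.65 ± 0.22, which did not pass the test (adjusted p = 0.0691); DESeq2 called it (adjusted p = 0.0275).

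Itga4 (ENSMUSG00000027009.18, chr2:79255426-79333123, plus strand), the integrin chain that recognises Vcam1, had a pattern unlike that of every other member. It read 8.93, 8.82, 12.6 and 9.53 CPM in C57BL/6J control and 32.6, 22.3, 24.2 and 29.3 in C57BL/6J AngII. Its 129S6/SvEvTac values were 34.6, 31.7, 32.1 and 33.8 CPM already in control and 43.0, 47.8, 36.5 and 37.7 with AngII. The 4 groups ranked in the same order in which they are named here, and only C57BL/6J AngII and 129S6/SvEvTac control overlapped, C57BL/6J AngII replicate 1 being above 2 of those controls. Itga4 was 3.31-fold lower in C57BL/6J control than in 129S6/SvEvTac control (-1.73 ± 0.14, adjusted p = 4.57e-07), and 1.52-fold lower with AngII (-0.61 ± 0.14, adjusted p = 0.00317). Within C57BL/6J it rose 2.72-fold with AngII (1.44 ± 0.14, adjusted p = 3.17e-06). In 129S6/SvEvTac all AngII libraries were above all controls, by 0.32 ± 0.13, but the test did not call it (adjusted p = 0.147). The AngII effect differed between strains by 1.12 ± 0.19 (adjusted p = 0.00357), and this call held when any 1 library was left out (adjusted p 0.00111 to 0.00971).

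Itga4 was also set against the leukocyte markers, as a description only. Their median sum was 105 CPM in C57BL/6J control and 102 in 129S6/SvEvTac control, so the ratio could change little between these groups. Which cells made the Itga4 RNA was not tested. Per 1000 CPM of pan-leukocyte markers, Itga4 was 88.3 ± 4.90 (SD, n = 4) in C57BL/6J control and 344 ± 79.5 in 129S6/SvEvTac control, 3.89 times as much, and the libraries did not overlap. With AngII the ratio was 65.6 ± 17.1 in C57BL/6J and 311 ± 49.5 in 129S6/SvEvTac, 4.74 times as much. Its partner chain Itgb1 had 2289 ± 117 CPM in C57BL/6J control and 2258 ± 132 in 129S6/SvEvTac control (log2 difference 0.02 ± 0.16, adjusted p = 0.967). Markers of mesothelium, the cell layer on the outer surface of organs, did differ between the strains in the direction of Itga4. In controls 6 of 6 were called lower in C57BL/6J (median log2 difference -5.61, 5.06% of all genes called lower). With AngII 2 of 6 of these markers were called lower in C57BL/6J (14.6% of all genes). Their sum was 0.28 to 2.35 CPM in C57BL/6J control, where Wt1 was at 0 in all libraries, 1.06 to 10.2 in C57BL/6J AngII, 15.7 to 75.6 in 129S6/SvEvTac control and 10.5 to 35.2 in 129S6/SvEvTac AngII. Their part in the Itga4 values was not tested. Cerkl, a gene on the opposite strand that shares 1124 exon bases with Itga4, had a mean of 2.97 to 3.37 CPM in all groups, below every group mean of Itga4; how reads in the shared bases were divided was not tested. Whether sequence differences between 129S6/SvEvTac and the C57BL/6J reference changed the alignment of Itga4 reads was not tested.

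Icam1 (ENSMUSG00000037405.8, chr9:21015985-21028817, plus strand), a ligand of Mac-1 and LFA-1, was not called with AngII in either strain. It read 41.6, 35.2, 43.3 and 51.1 CPM in C57BL/6J control and 45.5, 57.5, 44.7 and 54.1 in C57BL/6J AngII, which overlapped. Icam1 read 24.8, 26.9, 30.2 and 21.9 CPM in 129S6/SvEvTac control and 30.6, 55.8, 26.4 and 38.7 in 129S6/SvEvTac AngII, also with overlap. The log2 changes were 0.24 ± 0.19 in C57BL/6J (adjusted p = 0.351) and 0.54 ± 0.19 in 129S6/SvEvTac (adjusted p = 0.0822). Icam1 differed between the strains in controls, where all C57BL/6J libraries were above all 129S6/SvEvTac libraries (0.72 ± 0.19, adjusted p = 0.0254). The call was lost without any one of 6 of these 8 libraries, and it held without C57BL/6J control replicate 2 or 129S6/SvEvTac control replicate 3 (adjusted p 0.0241 to 0.0860, difference 0.63 to 0.81). With AngII the strain difference was 0.42 ± 0.19 (adjusted p = 0.117), and 0.67 without 129S6/SvEvTac AngII replicate 2 (adjusted p = 0.0072). In 129S6/SvEvTac the change with AngII was called when AngII replicate 4 was left out (0.66, adjusted p = 0.0390).

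Icam2 (ENSMUSG00000001029.15, chr11:106377656-106388075, minus strand), which is present on resting endothelium and platelets, was the only member lower with AngII in C57BL/6J. It read 18.3, 21.8, 17.6 and 25.6 CPM in C57BL/6J control and 7.42, 10.3, 14.5 and 12.2 in C57BL/6J AngII, every AngII library being below every control. Among 129S6/SvEvTac libraries it read 21.2, 15.3, 16.7 and 11.5 CPM in control and 10.4, 32.7, 11.5 and 20.7 with AngII, and these overlapped widely. The fall in C57BL/6J was 1.87-fold (-0.90 ± 0.32, adjusted p = 0.0351); the change in 129S6/SvEvTac was 0.22 ± 0.32 (adjusted p = 0.732). That fall stopped being called on leaving out AngII replicate 1, 2 or 5 or control replicate 2 or 5 (smallest change -0.75 and highest adjusted p 0.0983, both without AngII replicate 1), and with an adipocyte score as covariate it was -0.51 (adjusted p = 0.408). The difference of the effects between strains was -1.12 ± 0.45 and did not pass (adjusted p = 0.128). With AngII, Icam2 differed between the strains by -0.76 ± 0.32, not called (adjusted p = 0.0837), but called without 129S6/SvEvTac AngII replicate 1 (-0.94, adjusted p = 0.0338) or 4 (-0.91, adjusted p = 0.0484).

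Itgam (ENSMUSG00000030786.18, chr7:128062640-128118491, plus strand) and Itgb2 (ENSMUSG00000000290.13, chr10:77530252-77565708, plus strand) code for the alpha and beta chains of Mac-1, and Itgb2 is also the common beta chain of the other leukocyte beta-2 integrins. Itgam read 8.28, 8.31, 17.1 and 8.33 CPM in C57BL/6J control and 75.2, 30.4, 38.5 and 34.9 in C57BL/6J AngII. The 129S6/SvEvTac values were 5.54, 6.94, 11.5 and 2.35 CPM in control and 6.25, 8.38, 4.77 and 15.4 with AngII. C57BL/6J AngII thus stood above all other groups, C57BL/6J control replicate 3 was far above the other C57BL/6J controls, and the 129S6/SvEvTac groups overlapped. Itgam rose 4.26-fold in C57BL/6J (2.09 ± 0.46, adjusted p = 0.00229), against 0.41 ± 0.45 in 129S6/SvEvTac (adjusted p = 0.630).

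The Itgam counts are uncertain, because the annotated gene Gm49368 shares 3450 exon bases with it on the same strand. Gm49368 took 0 to 63.7% of the sum of both genes, unevenly over the groups. Its share was at most 1.53% in the 4 C57BL/6J controls but 48.5 to 63.7% in 3 of the 4 129S6/SvEvTac controls, so that the strains' controls are not alike in this respect. With AngII it was 36.3% and 52.2% in 2 C57BL/6J libraries and at most 0.0802% in the other 2, and 50.5% and 56.9% in 2 129S6/SvEvTac libraries and 0 in the other 2. The sum of both was 10.5 ± 4.36 CPM in C57BL/6J control, 58.6 ± 18.4 in C57BL/6J AngII, 11.03 ± 3.15 in 129S6/SvEvTac control and 11.9 ± 2.93 in 129S6/SvEvTac AngII. With the counts added together, an alternative chosen after the data were seen, the C57BL/6J change was 2.48 (adjusted p = 2.51e-05) and that in 129S6/SvEvTac 0.11 (adjusted p = 0.872). The difference between the strains' AngII effects, 1.68 ± 0.64 and not called for Itgam alone (adjusted p = 0.113), was 2.37 and called for the sum (adjusted p = 0.00444). For Itgam alone it was also called by DESeq2 (adjusted p = 0.0408) and by edgeR without 129S6/SvEvTac AngII replicate 5 (2.14, adjusted p = 0.0455) or 129S6/SvEvTac control replicate 4 (1.97, adjusted p = 0.0490).

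Itgb2 read 5.65, 5.199, 13.8 and 7.52 CPM in C57BL/6J control and 57.03, 38.7, 29.3 and 55.2 in C57BL/6J AngII. It read 6.85, 7.75, 7.49 and 4.30 CPM in 129S6/SvEvTac control and 9.99, 8.03, 6.5 and 12.2 in 129S6/SvEvTac AngII. The lowest C57BL/6J AngII library, at 29.3, was above the highest library of all other groups, at 13.8. The rise was 5.61-fold in C57BL/6J (2.49 ± 0.32, adjusted p = 3.34e-05) and the change 0.48 ± 0.31 in 129S6/SvEvTac (adjusted p = 0.372). The AngII effect was larger in C57BL/6J by 2.01 ± 0.44 (adjusted p = 0.0123), and the call held when any 1 library was left out (adjusted p 0.00366 to 0.0287).

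With AngII, the strains therefore differed in most members. C57BL/6J was higher in Itgam (2.35 ± 0.47, adjusted p = 0.00137), Itgb2 (2.29 ± 0.32, adjusted p = 8.37e-05) and Selplg (1.72 ± 0.35, adjusted p = 0.00182), each with no overlap between the strains. Selp was higher too (1.28 ± 0.45, adjusted p = 0.0393), although 129S6/SvEvTac AngII replicate 2 lay among the C57BL/6J libraries. Selp was no longer called on leaving out C57BL/6J AngII replicate 2 or 3 or 129S6/SvEvTac AngII replicate 1, 4 or 5, with differences of 0.99 to 1.30 and adjusted p of 0.0502 to 0.124, whereas without 129S6/SvEvTac AngII replicate 2 the difference was 2.04 (adjusted p = 0.000702). Sele differed by 1.48 ± 0.73 (adjusted p = 0.142), and by 2.81 without that library (adjusted p = 0.00529). Leaving out the same library also brought the difference of the Selp effects from 1.17 ± 0.62 (adjusted p = 0.262) to 1.93 (adjusted p = 0.0222).

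**Figure D2:**
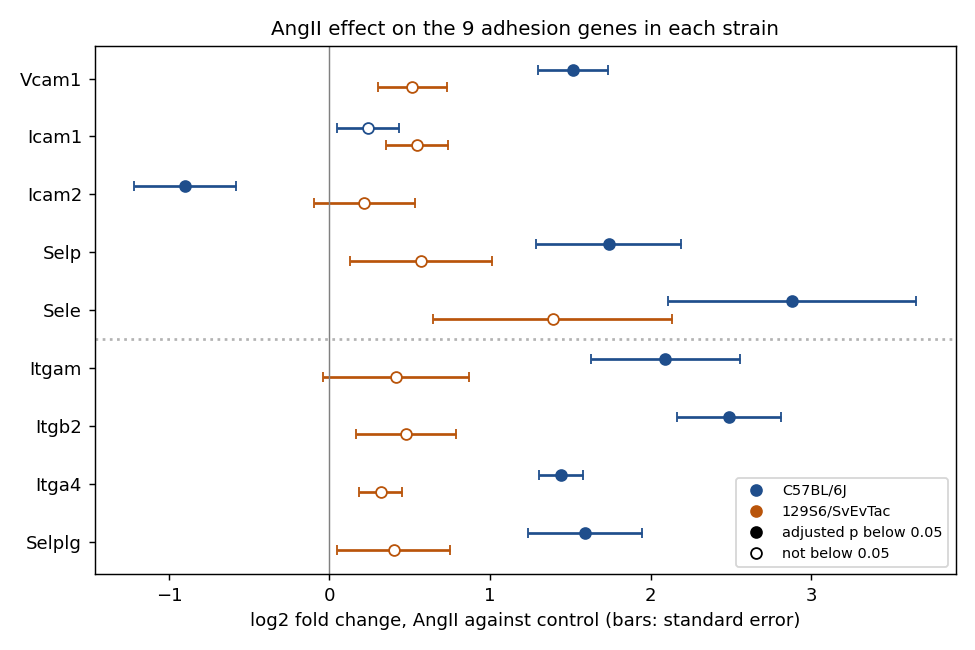
Log2 fold change with AngII against control (horizontal axis) for each of the 9 genes in C57BL/6J and 129S6/SvEvTac, with standard errors as bars; filled points had an adjusted p below 0.05 and open points did not. In C57BL/6J 7 genes lie to the right of 0 with filled points and Icam2 to the left, and in 129S6/SvEvTac all 9 points are open.

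Read by side, 3 of 5 vessel-side members (Vcam1, Selp, Sele) and 4 of 4 leukocyte-side members were called higher with AngII in C57BL/6J, and Icam2 was called lower. Over all genes tested 21.8% were called higher and 17.1% lower in that comparison. All libraries of one C57BL/6J group were above all of the other for these same 8 members, a separation found upward in 19.2% and downward in 16% of genes tested. The median log2 fold change was 1.52 for the vessel side and 1.84 for the leukocyte side, against 0.01 for all genes. In 129S6/SvEvTac edgeR called 0 of the 9 members, as did DESeq2 (3 had an unadjusted p under 0.05), where 7.71% of all genes were called higher and 4.47% lower; the medians were 0.54 and 0.41 against 0.0027 for all genes. Itga4 alone was separated without overlap there, upward, as were 12.4% of all genes.

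The difference of the AngII effects between strains was called for Vcam1 on the vessel side and for Itgb2 and Itga4 on the leukocyte side, all larger in C57BL/6J (5.34% of all genes were called in that direction and 4.62% in the other). The Vcam1 call was lost in 12 of 16 omissions of a library, while those of Itgb2 and Itga4 held in every omission. In controls, Icam1 was called higher in C57BL/6J (5.35% of all genes) and Itga4 lower (5.06%). Vcam1 and Icam1 were separated upward without overlap in controls, like 11.3% of all genes, and Itga4 downward, like 11%. With AngII, Vcam1, Selp, Itgam, Itgb2 and Selplg were called higher in C57BL/6J (16.8% of all genes) and Itga4 lower (14.6%). Of these, 4 were separated upward without overlap (14.7% of all genes) and Itga4 downward (12.3%). The comparisons share groups of libraries, so their counts do not add up as separate evidence.

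Levels of different genes were compared per kb of exon. In C57BL/6J control the order was Vcam1 (11.5 ± 2.32 CPM per kb), Icam2 (10.9 ± 1.92), Icam1 (9.82 ± 1.51), Selp (3.67 ± 1.29), Itgb2 (2.63 ± 1.30), Itgam (2.09 ± 0.87), Selplg (1.03 ± 0.56), Itga4 (0.71 ± 0.13) and Sele (0.46 ± 0.12). The mean ± SD ranges of neighbours in this order overlapped except at the step from Icam1 to Selp, which parted the 3 immunoglobulin-family genes from the rest, and at the step from Itga4 to Sele. In C57BL/6J AngII the second place went to Itgb2, with 14.8 ± 4.37 CPM per kb behind 33.0 ± 9.62 for Vcam1, while Icam2, at 5.85 ± 1.58, stood below Selp (12.2 ± 5.10), Icam1 (11.6 ± 1.46) and Itgam (8.91 ± 4.09). The ranges of Itgb2, Selp, Icam1 and Itgam overlapped. In 129S6/SvEvTac control Itga4 was at 2.36 ± 0.10 CPM per kb, level with Itgb2 at 2.16 ± 0.52.

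Summed per kb, the 5 vessel-side genes reached 33.4 to 43.7 CPM per kb in C57BL/6J control and 47.9 to 80.9 in C57BL/6J AngII, and the 4 leukocyte-side genes 4.67 to 10.7 and 21.6 to 40.1. In 129S6/SvEvTac the vessel-side sum was 20.2 to 30 in control and 24.6 to 59.4 with AngII, and the leukocyte-side sum 4.68 to 7.96 and 6.503 to 10.9. Among the C57BL/6J AngII libraries the sides ranked differently: replicates 2 and 3 had the larger vessel-side sums (80.9 and 80.3) with leukocyte-side sums of 22.3 and 21.6, and replicates 1 and 5 had vessel-side sums of 47.9 and 55.0 with leukocyte-side sums of 40.1 and 30.8. Replicates 1 and 5 also had the higher sums of macrophage markers (1970 and 2214 CPM against 1216 and 1118) and of adipocyte markers (4479 and 2395 against 694 and 200). In 129S6/SvEvTac AngII, replicate 2 had the highest vessel-side sum and a leukocyte-side sum of 8.42, inside its group's range. These are descriptions of 4 libraries a group, with no test.

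**Figure D3:**
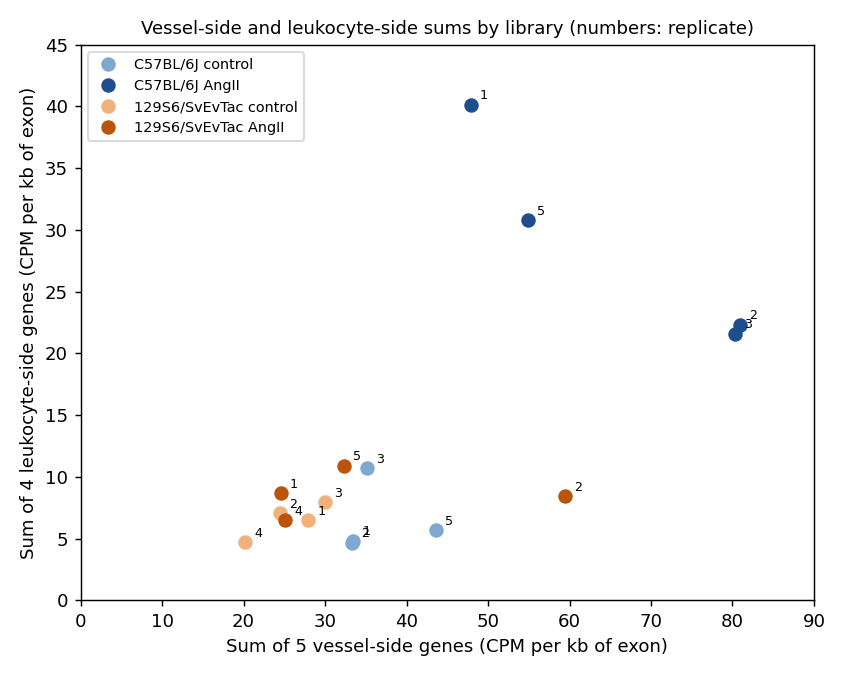
Sum of the 4 leukocyte-side genes (vertical axis) against the sum of the 5 vessel-side genes (horizontal axis), both in CPM per kb of exon, 1 point per library, coloured by group and numbered by replicate. The 4 C57BL/6J AngII libraries lie above 21 on the vertical axis and all others below 11; 129S6/SvEvTac AngII replicate 2 lies to the right of its group at 59.4.

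To set levels beside the cell types, and as a description only, each vessel-side gene was set against the summed endothelial markers of its library and each leukocyte-side gene against the summed pan-leukocyte markers. Per 1000 CPM of endothelial markers, Vcam1 was 156 ± 24.6 in C57BL/6J control and 446 ± 133 in C57BL/6J AngII, 2.87 times as much. Selp was 3.38 times and Sele 7.38 times as high as in control on this scale, both without overlap of the libraries, Icam1 1.19 times with overlap, and Icam2 0.53 times with every AngII library lower. The factors hardly differed from those on the CPM scale, the endothelial sum being similar in these groups. Vwf was the largest part of that sum, with 263 ± 26.2 CPM in C57BL/6J control and 265.5 ± 32.1 with AngII. Single markers did move in C57BL/6J: of 12, 2 were called higher (Robo4 rising most) and 1 lower (Egfl7). Over all genes 21.8% were called higher and 17.1% lower. In 129S6/SvEvTac all 5 ratios overlapped between control and AngII. Icam2 was 34.5 ± 4.085 in control and 25.5 ± 3.61 with AngII there, 0.74 times as much, the same direction as in C57BL/6J. The highest Icam2 ratio with AngII, 30.43, was above the lowest in control, 28.98. Vcam1 was 1.003 times, Icam1 0.977 times, Selp 0.896 times and Sele 1.34 times as high as in control. On this scale 129S6/SvEvTac AngII replicate 2 no longer had the highest Vcam1, Icam1 or Icam2 of its group. That library still had the highest Selp (37.45) and Sele (7.59) of its group on this scale.

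On the leukocyte side the ratios changed less than the levels. Per 1000 CPM of pan-leukocyte markers Itgb2 was 67.7 ± 16.2 in C57BL/6J control and 104 ± 7.31 in C57BL/6J AngII, 1.54 times as much, with no overlap. Against the macrophage markers it was 1.59 times as high as in control, with overlap. Of the 8 pan-leukocyte markers, Arhgdib rose least by group means in C57BL/6J, from 31.3 ± 3.02 to 55.6 ± 20.6 CPM. Ratios to a sum without Arhgdib were not computed. Per pan-leukocyte markers Itgam was 1.20 times, Selplg 0.85 times and Itga4 0.74 times as high as in control, each with overlap. That Itgam ratio leaves out Gm49368, which took 36.3% and 52.2% of the sum of both genes in C57BL/6J AngII replicates 2 and 5. In C57BL/6J control the share of Gm49368 was at most 1.53%, and a ratio for the sum of both genes was not computed. The leukocyte markers themselves rose: Ptprc, which codes for the common leukocyte antigen CD45, went from 8.05 ± 3.85 to 37.3 ± 11.4 CPM in C57BL/6J (2.21 ± 0.31, adjusted p = 5.50e-05), and 8 of 8 pan-leukocyte markers and 10 of 10 macrophage markers were called higher. Of the T and NK cell markers 1 of 10 was called higher (Trac), of the B cell markers 0 of 6 (0 also by DESeq2 and at an unadjusted p under 0.05), and of 7 neutrophil markers tested 0 were higher, by edgeR or DESeq2, and Ngp was lower. Over all genes 21.8% were called higher and 17.1% lower in this comparison. The median log2 fold changes of these lists were 1.08, -1.355 and -0.37. Neutrophil marker sums were 8.97 to 13.9 CPM in C57BL/6J AngII (median 11.7). In C57BL/6J control they were 1.27 to 11.2 CPM apart from replicate 3, at 37.3 (median of the group 6.55). T and NK cell marker sums were low as well, 1.96 to 4.93 CPM in C57BL/6J control and 3.19 to 11.5 with AngII. At counts this low, few calls do not show that these cells were unchanged. In 129S6/SvEvTac edgeR called 0 of these pan-leukocyte, macrophage, T and NK, B cell and neutrophil markers; 2 pan-leukocyte markers and 1 B cell marker had an unadjusted p under 0.05, and DESeq2 called 1 pan-leukocyte marker. Markers of other cells moved with AngII in C57BL/6J as well. Adipocyte markers were called higher for 10 of 10 genes (median log2 fold change 3.23), with sums of 109 to 373 CPM in control and 200 to 4479 with AngII. Fibroblast markers were called higher for 4 of 6, with sums of 3088 to 3670 and 13050 to 19880 CPM, lymphatic endothelial markers for 3 of 4, mesothelial markers for 2 of 6 and platelet markers for 1 of 5 (Pf4), while 6 of 6 smooth muscle markers were called lower. Their part in the values of the members was not tested. The markers in the adipocyte score themselves rose with AngII in C57BL/6J. The fits with that score therefore cannot tell adipocyte RNA apart from the effect of AngII.

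**Figure D4:**
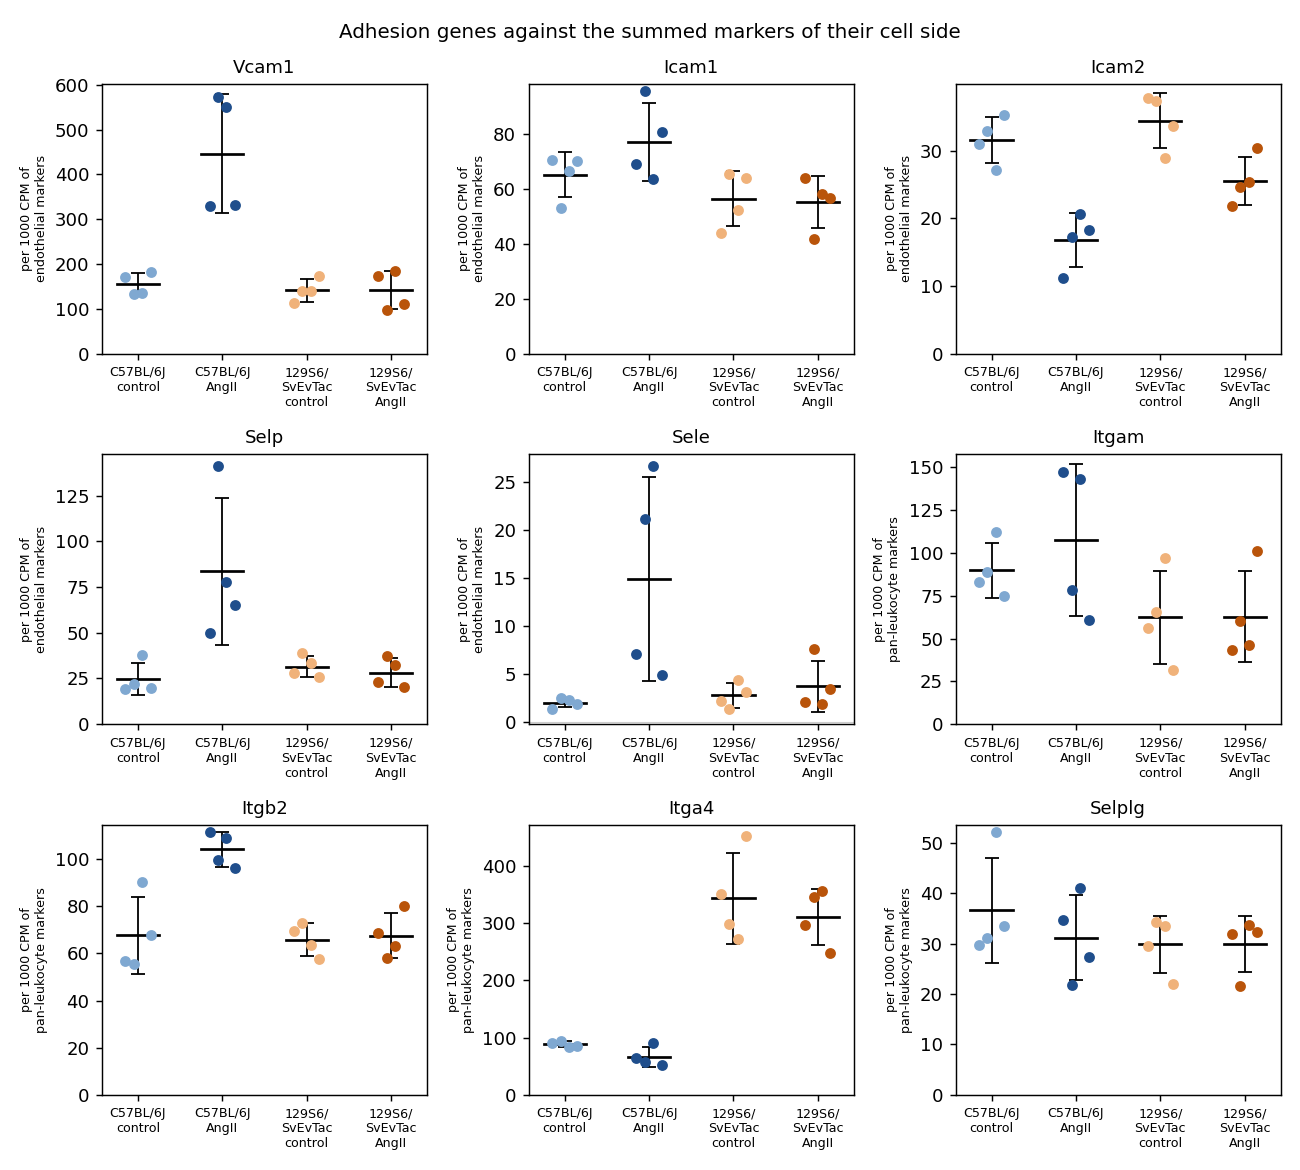
Each gene's CPM per 1000 CPM of summed endothelial markers (Vcam1, Icam1, Icam2, Selp, Sele) or pan-leukocyte markers (Itgam, Itgb2, Itga4, Selplg) in each library (points), with group means (bars) and SDs (whiskers, n = 4). Vcam1, Selp and Sele stay highest in C57BL/6J AngII, Selplg overlaps in all groups, and Itga4 is split by strain. Itgam is shown without the counts of Gm49368.

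The counts for other genes of the same steps stand beside the shares over all genes given above, 21.8% higher and 17.1% lower in C57BL/6J and 7.71% and 4.47% in 129S6/SvEvTac. Of 13 further vessel-side adhesion and transmigration genes tested, 3 were called higher and 3 lower in C57BL/6J and 1 and 1 in 129S6/SvEvTac, close to those shares. Jam2, a junctional adhesion molecule that can bind VLA-4, rose from 58.3 ± 2.17 to 107 ± 17.6 CPM in C57BL/6J (0.87 ± 0.15, adjusted p = 0.000351), and its AngII effect was larger there than in 129S6/SvEvTac (0.74 ± 0.21, adjusted p = 0.0384). Cdh5, the VE-cadherin of endothelial junctions, rose in both strains (0.77 ± 0.29, adjusted p = 0.0459, and 1.10 ± 0.29, adjusted p = 0.0218). In 129S6/SvEvTac it read 44.7 to 66.7 CPM in control and 74.1, 227, 71.4 and 127 with AngII, so that all AngII libraries were higher and replicate 2, with the high endothelial sum, was far above the rest. Jam3 fell in both (-0.82 ± 0.10, adjusted p = 1.70e-05, and -0.58 ± 0.10, adjusted p = 0.00158). Mcam, which is made by smooth muscle as well as endothelium, fell in C57BL/6J (-0.86 ± 0.15, adjusted p = 0.000284), and the low-abundance Icam5 rose most (2.09 ± 0.59, adjusted p = 0.0106). Pecam1, the platelet endothelial adhesion molecule, was 569 ± 62.4 CPM in C57BL/6J control and 340.0 ± 86.1 with AngII, just outside the threshold (-0.74 ± 0.28, adjusted p = 0.0504). F11r, the junctional molecule JAM-A, was not called (0.02 ± 0.21, adjusted p = 0.945).

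Among 6 other leukocyte integrin chains tested, 3 were called higher and 1 lower in C57BL/6J and 1 higher in 129S6/SvEvTac. Itgax, the CD11c chain that pairs with Itgb2 on dendritic cells and some macrophages, rose from 1.07 ± 0.46 to 10.3 ± 2.03 CPM in C57BL/6J (3.25 ± 0.68, adjusted p = 0.00141) and was just short of the threshold in 129S6/SvEvTac (2.21 ± 0.71, adjusted p = 0.0541). Itgal, the LFA-1 chain, was 1.98 ± 2.00 and 5.95 ± 2.15 CPM in the C57BL/6J groups and was not called (1.59 ± 0.68, adjusted p = 0.0758). Itgb1 was called higher in 129S6/SvEvTac (0.52 ± 0.16, adjusted p = 0.0405) but not in C57BL/6J (0.19 ± 0.16, adjusted p = 0.352); the difference between these effects did not pass (adjusted p = 0.384). Itgae had the largest rise in C57BL/6J (3.77 ± 1.31, adjusted p = 0.0333), but at low counts, 0 to 14 per control library and 22 to 133 with AngII. Itga9, which can also bind Vcam1, fell there (-0.64 ± 0.12, adjusted p = 0.000705). In C57BL/6J control Itgb1 and Itga9 had means of 2289 and 1421 CPM, far above the 8.05 CPM of Ptprc. Which cells made their RNA was not tested.

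Cd44, a hyaluronan receptor on leukocytes and many other cells, rose in both strains (1.62 ± 0.14, adjusted p = 1.38e-06, and 0.94 ± 0.14, adjusted p = 0.000484), more in C57BL/6J (0.68 ± 0.19, adjusted p = 0.0368). Of the 8 other leukocyte adhesion receptors it was 1 of 2 called higher in C57BL/6J, beside Cd84 (2.57 ± 0.46, adjusted p = 0.000477), and the only 1 in 129S6/SvEvTac. Spn, the sialophorin CD43, had 3.28 ± 1.10 CPM in C57BL/6J control and 8.02 ± 3.30 with AngII and was not called (1.29 ± 0.51, adjusted p = 0.0590). Of 9 tested enzymes that build selectin ligands, 4 were called higher in C57BL/6J and 0 in 129S6/SvEvTac by edgeR (0 by DESeq2, 1 at an unadjusted p under 0.05). Fut4, a fucosyltransferase, rose most (0.87 ± 0.33, adjusted p = 0.0477), and Fut7, which has a similar role, did not pass the filter on low counts. Gcnt1, which starts the branched glycan on PSGL-1, was not called with AngII in C57BL/6J (-0.01 ± 0.23, adjusted p = 0.978) but was higher in C57BL/6J than in 129S6/SvEvTac, by 1.80 ± 0.24 in controls (adjusted p = 0.000101) and 1.70 ± 0.24 with AngII (adjusted p = 7.92e-05).

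Of 11 genes that switch integrins to their binding state, 7 were called higher and 2 lower in C57BL/6J and 0 in 129S6/SvEvTac by edgeR (1 by DESeq2, 3 at an unadjusted p under 0.05). Fermt3, the kindlin of blood cells, rose from 5.68 ± 2.14 to 17.7 ± 6.71 CPM (1.64 ± 0.32, adjusted p = 0.0010), and Vav1, a signalling protein of blood cells, rose most (2.54 ± 0.40, adjusted p = 0.000166). Tln1, talin, which is made in most cells, fell from 927 ± 43.5 to 570 ± 115 CPM (-0.70 ± 0.11, adjusted p = 0.000188), and Rasgrp2, an activator of Rap1, fell as well (-1.64 ± 0.21, adjusted p = 2.64e-05). The 10 chemokines known to stop rolling leukocytes were all called higher in C57BL/6J, and 1 of 10, Cx3cl1, was called in 129S6/SvEvTac (0.52 ± 0.12, adjusted p = 0.0110). The monocyte attractants Ccl2 (4.497 ± 0.61, adjusted p = 4.91e-05), Ccl7 (4.65 ± 0.55, adjusted p = 1.48e-05) and Ccl8 (4.91 ± 0.88, adjusted p = 0.000475) rose steeply, and Ccl5, which also attracts T cells, rose too (1.88 ± 0.47, adjusted p = 0.0051).

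Of 15 tested inducers and regulators of adhesion gene transcription, 6 were called higher and 2 lower in C57BL/6J and 0 in 129S6/SvEvTac by edgeR (1 by DESeq2, 1 at an unadjusted p under 0.05); over all genes 21.8% were higher and 17.1% lower in C57BL/6J. Tnf, a cytokine that induces endothelial adhesion molecules, was called higher at very low levels, 0.04 ± 0.08 against 0.53 ± 0.21 CPM (3.64 ± 1.32, adjusted p = 0.0396). Il1b, with a similar action, went from 1.79 ± 2.25 to 11.4 ± 3.85 CPM (2.68 ± 0.92, adjusted p = 0.0311). Rela, the p65 subunit of NF-kB, was not called (-0.18 ± 0.07, adjusted p = 0.0628), and Gata2, an endothelial and blood cell transcription factor, fell (-0.84 ± 0.25, adjusted p = 0.0148). Among 6 proteases and other genes of shedding, 5 were called higher in C57BL/6J; Adam17, which sheds Vcam1, rose by 0.49 ± 0.13 (adjusted p = 0.00803), Adam10 by 0.79 ± 0.13 (adjusted p = 0.000177) and Adam8, a leukocyte metalloprotease, by 4.45 ± 0.37 (adjusted p = 1.06e-06). In 129S6/SvEvTac Cd44 was called higher and Mmp9 lower (-1.15 ± 0.31, adjusted p = 0.0264).

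The protein-coding genes most like each member were picked by Pearson's r of log2 CPM over the 16 libraries; r carries the differences between groups and libraries with it and is given as a description. The leukocyte-side genes Itgb2 (with Nckap1l and Plek, r = 0.986 for both), Selplg (with Was, 0.966, and Fermt3, 0.965) and Itgam (with Cd84, 0.953, and Slfn2, 0.947) were most like genes of blood cells. Itga4 was most like Cfi (0.957) and Enpep (0.952), and with the other 8 members its r was between -0.291 and 0.171. Icam2 was most like Pecam1 (0.923) and Rph3al (0.914). Vcam1 was most like Kbtbd2 (0.956) and Egr2 (0.947), and Selp like Kbtbd2 (0.899) and Spats2 (0.897). Sele was like Adam10 (0.904), and Icam1 most like B3gnt3 and Cmip (0.898 for both).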

How the data were processed

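RNA sequencing libraries of whole descending thoracic aorta (16, 4 per group) were used as the deposited table of expected counts per gene, all whole numbers. Per the submitters' processing notes, HISAT2, StringTie, Gencode and GRCm38/mm10 were used, and DESeq2 1.26.0 and R 3.6.2 are named; the sources used here do not give the Gencode release or whether counting used strand. Totals of 42116120 to 121573945 counts per library set the counting precision. Gene names came from GENCODE's GRCm38 annotation (52489 of 52636 IDs matched, 3368 of them with another version number). edgeR 4.0.16 in R 4.3.3 was run on all 16 libraries (minimum count 10 by filterByExpr, TMM scaling, 1 mean per group, robust quasi-likelihood fit, Benjamini-Hochberg adjustment over 17125 genes, called below 0.05). SEs were derived from the fold change and its F statistic, and CPM are counts divided by TMM-scaled library size. The script was tested on simulated counts. Replicates differed by more than sampling noise (lowest chi-square per degree of freedom 37.6).

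The members and gene lists were chosen with earlier results of these data known. Beside the 9 members, the text names the leading 3 genes of each list described, the called genes with the largest rise and fall in each AngII comparison, and the 2 genes most like each member by Pearson's r, except for some that are not reported here; Itgb1, Gcnt1 and the overlapping genes were followed further after their values were seen, and some marker lists are given by counts and sums alone. Motif letters were written with known sites in mind, and the promoters printed were picked after members and matches had been seen. Alternatives tried were other scalings and filters, DESeq2 1.42.0, fits of only the groups compared, a replicate block, an adipocyte score as covariate and leaving out each library; leaving out 2 libraries together and adding Gm49368 to Itgam were chosen after seeing the data.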

Additional observations from a re-analysis of the deposited data

Results flagged for a closer look

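Within the 36 sets of 4 libraries examined (9 genes in 4 groups), 5 had a highest library that lay far from the other 3 by Dixon's criterion, which chance meets in about 1 in 20 sets. In 129S6/SvEvTac AngII, replicate 2 had 130.5 CPM of Vcam1 against 83.4 in the next library, 49.8 CPM of Selp against 14.7, and 10.1 CPM of Sele against 2.32; the same library had an endothelial marker sum of 1330 CPM. In C57BL/6J control, replicate 3 had 17.1 CPM of Itgam against 8.33 in the next library and 7.94 CPM of Selplg against 3.72; the same library had the most neutrophil and platelet marker RNA of its group. Without it, the AngII change of Itgam in C57BL/6J was 2.42 in place of 2.09, and the difference of the Selplg effects between strains was called (1.66, adjusted p = 0.0307, against 1.19 ± 0.49, adjusted p = 0.143, with all libraries).

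The AngII effect differed between the strains by edgeR's test of the difference for 3 members, each larger in C57BL/6J: Itgb2 by 2.01 on the log2 scale, Itga4 by 1.12 and Vcam1 by 0.9997. The call of Vcam1 was at the edge of the threshold (adjusted p = 0.0498, edgeR) and was lost in 12 of 16 omissions of a library.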

How the results depend on the processing

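Of 45 member results (9 genes in 5 comparisons), 38 kept their direction in every alternative. Of the 19 called, 15 held in every omission of a library and 14 of those also in the other settings; the exceptions are the Vcam1 difference, Icam1 in controls, Icam2 in C57BL/6J, Selp between strains with AngII, and Selplg in C57BL/6J. Beside the omissions, the Vcam1 difference was lost without the filter (adjusted p = 0.0604) with the replicate block (0.112) and without C57BL/6J AngII replicate 1 and 129S6/SvEvTac AngII replicate 5 together (0.0551), Icam1 in controls with the replicate block (0.0666) and the adipocyte covariate (0.0691), Icam2 without the filter (0.0591) and without those 2 libraries (0.110), and Selp without the filter (0.0755), with only the groups compared (0.109) and without them (0.0699). The AngII change of Vcam1 in 129S6/SvEvTac (0.69, adjusted p = 0.0063) and of Sele there (1.92, 0.0403) were called with the adipocyte covariate only.

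Direction turned only in results that were not called. Over omissions of 1 library, the change in 129S6/SvEvTac ran from -0.20 to 0.39 for Icam2, -0.04916 to 0.82 for Itgam and -0.20 to 0.77 for Selp. In controls the strain difference ran from -0.11 to 0.45 for Itgb2, -0.28 to 0.49 for Sele and -0.16 to 0.26 for Selp. The Selp difference in controls was -0.35 with the adipocyte covariate, the Itgam difference in controls -0.069 with Gm49368 added, and the Itgam change in 129S6/SvEvTac -0.0494 without the 2 libraries. The cause of these turns was not tested.

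With the adipocyte covariate the genes called over the whole table went from 6664 to 4312 for AngII in C57BL/6J and from 1706 to 1024 for the difference of effects. The latter count was 2685 with DESeq2 and 1049 without the 2 libraries, and ran from 1039 (without 129S6/SvEvTac control replicate 2) to 2990 (without C57BL/6J AngII replicate 3), with 1076 without 129S6/SvEvTac AngII replicate 4. Strains in controls went from 1783 to 2772 with only those groups fitted. Scaling by library size alone moved the share of calls that were higher from 63.3% to 25.2% in 129S6/SvEvTac, where the median of all genes was then -0.16, from 56.1% to 45.4% in C57BL/6J and from 53.6% to 65.2% for the difference; every member kept its side of the threshold.

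Same-numbered libraries did not clearly deviate together (r from -0.06 to 0.145 over 7 pairs, 3 of 7 best with their own number). Pairs this few cannot show whether the numbers mark a shared batch, and the main fit did not pair libraries. With the replicate block the counts were 6175 for AngII in C57BL/6J, 1426 in 129S6/SvEvTac, 1590 for the difference, 1383 for controls and 4459 with AngII.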
